A study of Mus musculus with 6 samples.

Results

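Toll-like receptors are the membrane proteins by which macrophages sense microbial products, and 10 genes of this system were described in BMMs, macrophages grown from mouse bone marrow, after treatment with DASA-58. The genes were 7 of the mouse Toll-like receptors (Tlr1, Tlr2, Tlr4, Tlr7, Tlr8, Tlr9 and Tlr13), the coreceptors Cd14 and Ly96, and the adaptor Myd88. They were chosen by name, as the rows whose Ensembl identifier maps to these symbols, and they are 10 of the 23504 genes listed.

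The RNA-seq experiment compared 3 libraries of BMMs given DASA-58, a small molecule that activates the glycolytic enzyme PKM2, with 3 libraries given DMSO, its solvent, and asked how gene expression differed while the cells were driven toward osteoclasts. The mice were C57BL/6, and the methods give them as males of 6 to 8 weeks whose marrow was grown with M-CSF. RNA was taken after 3 days. The study's results state that all cells were induced with RANKL, the cytokine that turns macrophages into osteoclasts, whereas its methods name RANKL for the treated group only. The methods spell the compound DASA-48 and the sample labels DASA-58, and no concentration was given for the sequenced cells. Nothing states whether the replicates were separate cultures or animals, so the p-values measure only the spread between these libraries.

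Levels are FPKM, fragments per kilobase of transcript scaled to the fragments counted in each library, so levels of different genes can be set side by side. The depth behind the values was between 18191560 and 18968556 fragments in each library. A count of 0 leaves room for 3 fragments, which for a gene of 1 kilobase come to 0.158 to 0.165 FPKM, by counting error alone. A gene was called higher or lower at an adjusted p under 0.05 in limma on log2(FPKM + 1), adjusted by Benjamini-Hochberg over 10965 genes. Fold changes are DASA-58 minus DMSO on that scale, with 95% intervals, and they understate the change of low genes. With 3 libraries against 3, a two-sided exact permutation test of a single gene cannot give a p below 0.10, and this value was reached wherever the groups are said not to overlap.

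Toll-like receptors work as dimers. Tlr2 pairs with Tlr1 or Tlr6 at the cell surface to bind bacterial lipopeptides, and Tlr4 with its partner Ly96 (also called MD-2) binds lipopolysaccharide, which Cd14 hands over to them. Tlr7, Tlr8, Tlr9 and Tlr13 sit in endosomes, where nucleic acids are met. In the mouse, Tlr7 binds single-stranded RNA, Tlr9 DNA rich in CpG, and Tlr13 bacterial ribosomal RNA. Myd88 couples all of these receptors to the kinases that activate NF-κB, and the same receptors can hold back osteoclast formation when they are triggered in precursor cells.

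Every one of the 10 genes was expressed in all 6 libraries and entered the test. Tlr13 was the 1 gene called higher with DASA-58, where 4.24% of all genes tested were called higher, and Cd14 was the 1 gene called lower, where 7.28% of all genes tested were called lower. The other 8 were not called. Both counts are of the size that these shares give for a list this short, so neither sets the 10 genes apart. The groups did not overlap, with DASA-58 higher, for Tlr1, Tlr4, Tlr13 and Ly96, which is 4 of 10 genes beside 11.8% of all genes tested, and with DASA-58 lower for Cd14 and Myd88, which is 2 of 10 beside 21.6%. The median log2 fold change of the 10 genes was 0.08, and that of all genes tested was -0.03.

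**Figure D1:**
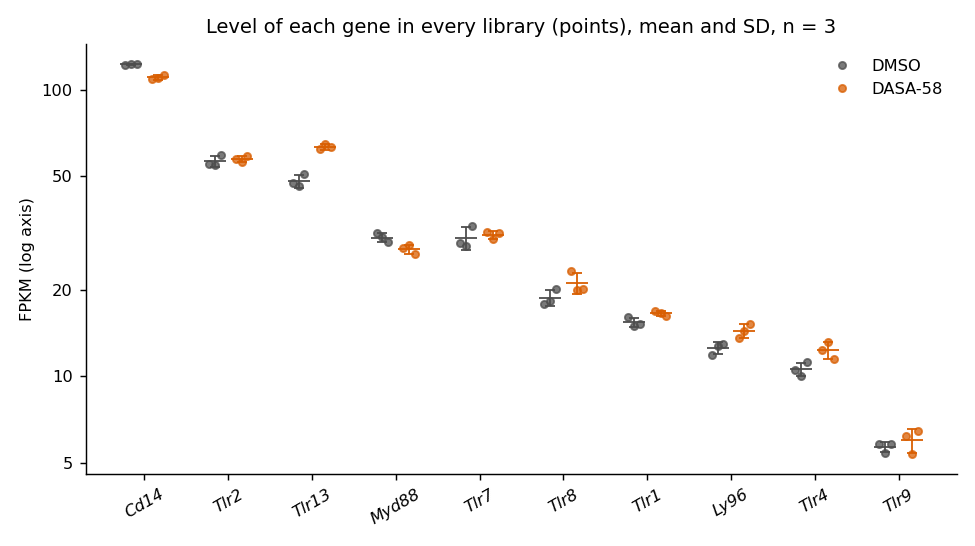
FPKM on a log axis of the 10 genes in 3 DMSO libraries (grey) and 3 DASA-58 libraries (orange), ordered by their DMSO mean, with points for libraries, horizontal marks for means and bars for the SD. Tlr13 lies between 46.2 and 50.8 FPKM with DMSO and between 62.1 and 64.9 with DASA-58, and Cd14 between 123 and 124 FPKM with DMSO and between 109 and 113 with DASA-58.

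Among the surface receptors, Tlr2 was the most abundant, and no member of the group was called. Tlr2 (chr3:83836272-83841767, minus strand, GRCm38) stood at 55.3, 54.5 and 59.3 FPKM in DMSO replicates 1, 2 and 3 and at 57.4, 56.0 and 58.8 FPKM in DASA-58 replicates 1, 2 and 3. The groups overlapped, and the log2 fold change of 0.03 had an interval from -0.06 to 0.12 (adjusted p = 0.70, limma). At this depth, with 3058 to 3360 fragments of Tlr2 per library, a change of the size seen for Tlr13 lies outside that interval.

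Tlr1 (chr5:64924679-64933563, minus strand) was measured at 16.1, 15.0 and 15.3 FPKM with DMSO and at 17.0, 16.6 and 16.3 FPKM with DASA-58. All DASA-58 libraries were above all DMSO libraries, by a narrow margin, and the log2 fold change of 0.10 (interval 0.01 to 0.19) was not called (adjusted p = 0.137, limma). Tlr6, the other partner of Tlr2, ranged from 5.72 to 6.55 FPKM with DMSO and from 6.27 to 7.10 FPKM with DASA-58, which overlap (log2 fold change 0.12, interval -0.02 to 0.26, adjusted p = 0.249, limma). Tlr1 thus stood at 2.53 ± 0.20 times Tlr6 in FPKM with DMSO and at 2.47 ± 0.16 times with DASA-58 (SD, n = 3), and these ratios overlapped.

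Tlr1 and Tlr6 are neighbours on chromosome 5, with 18467 bases between them, and their transcripts share long identical stretches. The longest covers 229 bases of the coding exon of each gene. It is shown because a fragment inside it cannot be assigned to either gene from its sequence. Both genes had whole fragments in every library, so such fragments were not counted in fractions. The separate values of Tlr1 and Tlr6 are uncertain to the extent that the counting dropped such fragments or placed them with either gene. It is read on the minus strand from chr5:64925537-64925765 in Tlr1 and from chr5:64953828-64954056 in Tlr6 (GRCm38, GENCODE vM21).
Tlr1 and Tlr6 shared stretch: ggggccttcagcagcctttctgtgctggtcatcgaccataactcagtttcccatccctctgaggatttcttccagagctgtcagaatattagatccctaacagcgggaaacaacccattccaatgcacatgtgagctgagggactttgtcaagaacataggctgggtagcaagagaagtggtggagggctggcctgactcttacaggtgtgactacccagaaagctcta
In windows of 50 bases, 454 windows were identical in both transcripts, which is 15.3% of those in Tlr1 and 12.5% of those in Tlr6. None of the other pairs among the 105 compared for the 10 genes and the remaining Toll-like receptors shared a single window of that length.

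Tlr4 (chr4:66827584-66930284, plus strand), the lipopolysaccharide receptor, was among the lowest of the 10 genes. Its levels were 10.5, 10.1 and 11.2 FPKM with DMSO and 12.3, 13.2 and 11.5 FPKM with DASA-58. Every DASA-58 library was above every DMSO library, but DASA-58 replicate 3 exceeded the highest DMSO library only slightly. The log2 fold change of 0.20 (interval 0.06 to 0.34) was not called (adjusted p = 0.068, limma).

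**Figure D2:**
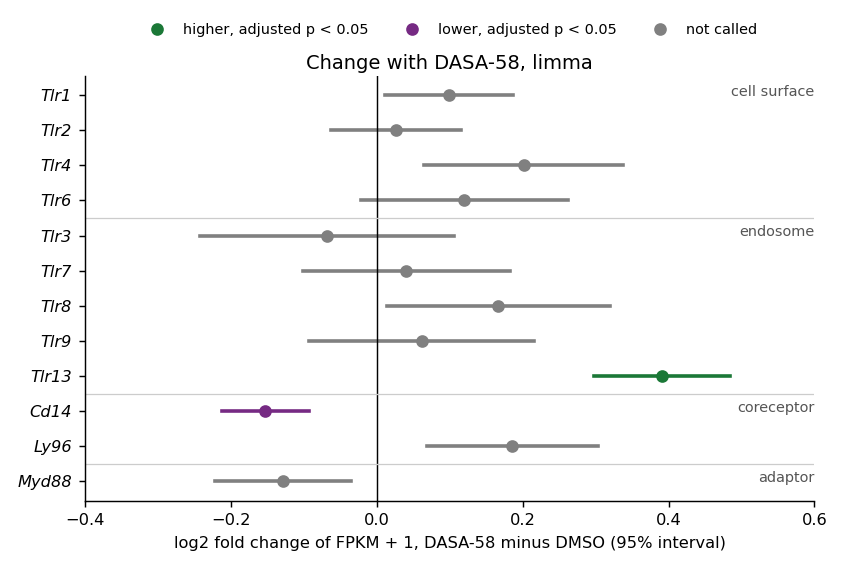
Log2 fold change of FPKM + 1, DASA-58 minus DMSO, with the 95% interval from limma for the 10 genes and for Tlr3 and Tlr6, grouped by where the protein acts. Tlr13 at 0.39 is the only one called higher and Cd14 at -0.15 the only one called lower, and the intervals of Tlr2, Tlr3, Tlr6, Tlr7 and Tlr9 include 0.

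Among the endosomal receptors, Tlr13 rose and the others were not called. Tlr13 (chrX:106143204-106160493, plus strand) stood at 47.2, 46.2 and 50.8 FPKM with DMSO and at 62.1, 64.9 and 63.0 FPKM with DASA-58. The lowest DASA-58 library was above the highest DMSO library by more than the range of either group. Its mean went from 48.1 ± 2.43 to 63.3 ± 1.43 FPKM (SD, n = 3), which is 132% of the DMSO mean. The log2 fold change was 0.39 (SE 0.04, interval 0.30 to 0.48, adjusted p = 0.0012, limma), ranking 90 by size among the 465 genes called higher. It rests on 3537 to 4879 fragments per library.

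Tlr7 and Tlr8 lie side by side on the X chromosome, 40599 bases apart. Tlr7 (chrX:167304929-167330558, minus strand) was measured at 29.2, 28.4 and 33.6 FPKM with DMSO and at 32.0, 30.2 and 31.6 FPKM with DASA-58. DMSO replicate 3 was the highest of all libraries, the groups overlapped, and the log2 fold change was 0.04 (interval -0.10 to 0.18, adjusted p = 0.715, limma). Its sign rests on DMSO replicate 2, since without that library the log2 fold change was -0.0051.

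Tlr8 (chrX:167242696-167264329, minus strand) stood at 17.9, 18.3 and 20.1 FPKM with DMSO and at 23.3, 20.1 and 20.3 FPKM with DASA-58. DASA-58 replicate 1 was apart from the rest, and DASA-58 replicate 2 and DMSO replicate 3 were nearly equal, so the groups touched. The log2 fold change of 0.17 (interval 0.01 to 0.32) was not called (adjusted p = 0.149, limma). The ratio of Tlr8 to Tlr7 was 0.618 ± 0.023 with DMSO and 0.679 ± 0.045 with DASA-58 (SD, n = 3), and its ranges overlapped by a small amount.

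Tlr9 (chr9:106222598-106226883, plus strand) was the lowest of the 10 genes, at 5.81, 5.41 and 5.81 FPKM with DMSO and 6.18, 5.34 and 6.43 FPKM with DASA-58. The DASA-58 libraries held both the lowest and the highest value. The log2 fold change was 0.06 (interval -0.09 to 0.22, adjusted p = 0.602, limma), from 338 to 424 fragments per library.

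Of the receptors outside the 10 genes, Tlr3, the endosomal sensor of double-stranded RNA that signals without Myd88, ranged from 3.49 to 3.78 FPKM with DMSO and from 3.02 to 3.83 FPKM with DASA-58 (log2 fold change -0.07, interval -0.24 to 0.11, adjusted p = 0.611, limma). Tlr5, the flagellin receptor, was below the minimum of 1 FPKM, with 25 to 55 fragments per library. Tlr11 had 0 to 3 fragments and Tlr12 had 0 to 1 in each library, so differences of these genes were not detectable at this depth.

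Promoter sequences from RefSeq (GRCm38.p6), each running from 250 bases before to 50 after a start site, were held for 6 of the 10 genes, namely Tlr1 with 2 start sites, Tlr2, Tlr8, Tlr9, Tlr13 and Myd88. The word GAGGAA, the purine-rich core bound by the macrophage factor PU.1, was searched on both strands and was found in 4 of these 7 promoters, those of Tlr13, Tlr8 and Tlr9 and 1 of the 2 of Tlr1, while 28.3% of 32851 mouse promoters hold it. The word GGAANT, part of sites bound by NF-κB, searched in the same way, was found in 6 of 7 and is held by 53.4% of mouse promoters. The interferon response element, searched on both strands as GAAA, any 2 bases and GAAA, was found only in the promoter of Myd88 and is held by 3.44%. GAGGAA and GGAANT can overlap at GGAA. Bases before both the RefSeq start site and the GENCODE gene start are shown for Tlr13, the receptor that rose, and for Tlr8, its endosomal relative on the same chromosome that was not called, with GAGGAA or its reverse complement in capitals. The Tlr13 stretch is the 179 bases at chrX:106143025-106143203 on the plus strand, which leaves out the 71 bases between the GENCODE gene start and the RefSeq start site, and the Tlr8 stretch is the 250 bases at chrX:167264330-167264579 on the minus strand.
Tlr13: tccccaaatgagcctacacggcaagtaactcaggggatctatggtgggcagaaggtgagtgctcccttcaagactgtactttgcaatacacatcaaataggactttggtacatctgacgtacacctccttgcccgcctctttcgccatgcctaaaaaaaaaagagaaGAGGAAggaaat
Tlr8: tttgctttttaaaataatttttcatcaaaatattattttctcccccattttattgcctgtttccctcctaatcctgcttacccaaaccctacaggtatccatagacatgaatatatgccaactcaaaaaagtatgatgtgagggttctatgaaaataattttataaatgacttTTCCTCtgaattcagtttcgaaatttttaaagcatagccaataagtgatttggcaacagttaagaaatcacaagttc
Both hold the word once, Tlr13 on the strand of the gene and Tlr8 on the opposite strand, so its presence does not separate the receptor that rose from the one that was not called. A match of letters is a description and not evidence of a bound site.

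When the FPKM of the 12 mouse Toll-like receptors were summed in each library, the sum was 192, 188 and 206 with DMSO and 221, 217 and 218 with DASA-58. The groups did not overlap, and the mean went from 195 ± 9.03 to 219 ± 1.90 FPKM (SD, n = 3), a difference of 23.4 FPKM. Tlr13 alone differed by 15.2 FPKM between the means and the other receptors of the sum by 8.14 FPKM. As a share of the sum, Tlr13 went from 24.6% ± 0.10 to 28.9% ± 0.89, and Tlr2 from 28.8% ± 0.08 to 26.2% ± 0.59 (SD, n = 3), neither with overlap. The endosomal receptors made up 54.5% ± 0.79 of the sum with DMSO and 57.2% ± 0.13 with DASA-58, again without overlap. Of these receptors, only Tlr13 had a higher share without overlap. The share of Tlr7 went down, from 15.5% ± 0.70 to 14.3% ± 0.34 without overlap, and those of Tlr3, Tlr8 and Tlr9 overlapped. The endosomal share thus does not describe a rise of these receptors as a class. These shares are tied to each other, since a rise in 1 receptor lowers the share of the rest.

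**Figure D3:**
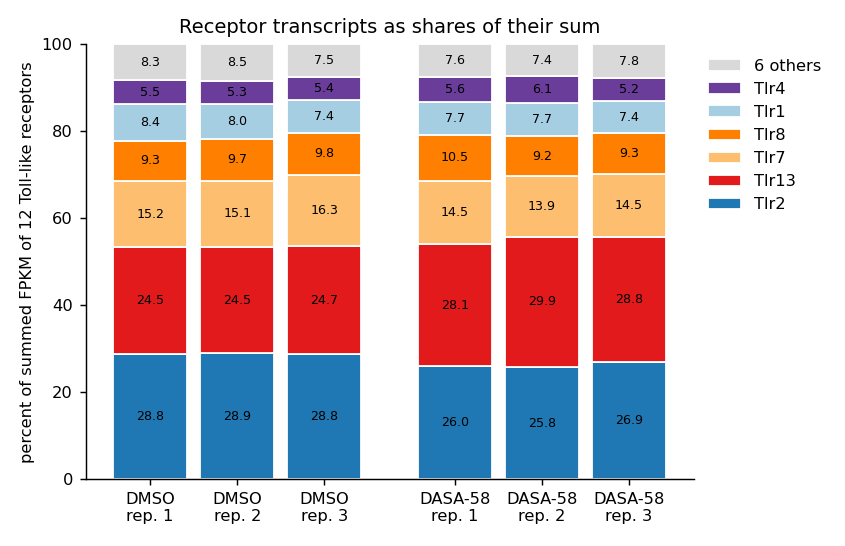
Each bar is 1 library, 3 with DMSO and 3 with DASA-58, and its coloured parts are the percent of the summed FPKM of 12 Toll-like receptors, with the 6 lowest drawn as 1 part. The Tlr13 part is 24.5% to 24.7% with DMSO and 28.1% to 29.9% with DASA-58, and the Tlr2 part is larger than it only with DMSO.

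The order of the levels differed accordingly. With DMSO the means ran from Cd14 at 123 FPKM through Tlr2, Tlr13, Myd88, Tlr7, Tlr8, Tlr1, Ly96 and Tlr4 to Tlr9 at 5.68 FPKM, and of these neighbours only Myd88 and Tlr7 overlapped in their range. With DASA-58, Tlr13 stood above Tlr2 and Tlr7 above Myd88, and no neighbours overlapped. The ratio of Tlr13 to Tlr2 was 0.853, 0.847 and 0.857 with DMSO and 1.08, 1.16 and 1.07 with DASA-58.

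The coreceptors of Tlr4 did not move together. Cd14 (chr18:36725067-36726798, minus strand, a single exon), which carries lipopolysaccharide to Tlr4 and also helps other receptors take up their ligands, was the most abundant of the 10 genes and fell. It stood at 122.7, 123.6 and 122.7 FPKM with DMSO and at 108.9, 109.7 and 113.2 FPKM with DASA-58, and the DMSO libraries were nearly equal. Its mean with DASA-58 was 89.9% of that with DMSO. The log2 fold change was -0.15 (SE 0.03, interval -0.21 to -0.09, adjusted p = 0.0098, limma), ranking 677 by size among the 798 genes called lower.

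Ly96 (chr1:16688051-16709611, plus strand), without which Tlr4 does not bind lipopolysaccharide, was measured at 11.9, 12.7 and 13.0 FPKM with DMSO and at 13.6, 14.4 and 15.2 FPKM with DASA-58. The groups did not overlap, yet the log2 fold change of 0.19 (interval 0.07 to 0.30) was not called (adjusted p = 0.055, limma). With 223 to 294 fragments per library it had the lowest counts of the 10 genes. The ratio of Cd14 to Tlr4 in FPKM was 11.7, 12.3 and 11.0 with DMSO and 8.83, 8.29 and 9.87 with DASA-58, without overlap. The ratio of Ly96 to Tlr4 was 1.19 ± 0.07 with DMSO and 1.17 ± 0.13 with DASA-58 (SD, n = 3), and it overlapped.

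Myd88 (chr9:119335934-119341411, minus strand) stood at 31.6, 30.6 and 29.4 FPKM with DMSO and at 28.1, 28.7 and 26.7 FPKM with DASA-58. All DASA-58 libraries were below all DMSO libraries, and the log2 fold change of -0.13 (interval -0.22 to -0.04) was not called (adjusted p = 0.081, limma). Of its exon bases, 290 (11.3%) overlap exons of Acaa1a on the opposite strand, a gene at 30.7 to 36.9 FPKM in these libraries. Whether the counting used strand was not stated, so fragments from these bases cannot be told apart between the 2 genes. The interleukin-1 family receptors that also signal through Myd88 were under 1 FPKM for all 5 genes listed, the highest being Il1rap at 0.738 to 0.939 FPKM and Il1rl2 at 0.248 to 0.379 FPKM.

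Around the receptors, 93 further genes of the pathway were listed, of which 69 could be tested. With DASA-58, 9 were called higher and 7 lower, where 4.24% and 7.28% of all genes tested were called in these directions, and their median log2 fold change of -0.02 was close to the -0.03 of all genes tested. These counts fell when some single libraries were left out, which also leaves fewer libraries for the test. Without DMSO replicate 2 or 3, higher calls stayed at 9. Higher calls numbered 3 without DMSO replicate 1 or DASA-58 replicate 3 and 5 without DASA-58 replicate 1 or 2, and lower calls numbered 4 without DMSO replicate 1 or DASA-58 replicate 1.

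Genes that fold, move, cleave or assist the receptors gave 5 of 15 tested called higher and 0 lower. Of all genes tested, 4.24% were called higher and 7.28% lower. The median log2 fold change of the list was 0.08. At an unadjusted p under 0.05, 7 of its genes were higher and 0 lower. At that threshold 9.83% of all genes tested were higher and 18.0% lower. The list was chosen with earlier results of these data known, so its counts cannot show a rise of such genes as a set. Cd36, a scavenger receptor that assists Tlr2 with Tlr6, stood at 336, 342 and 362 FPKM with DMSO and at 489, 512 and 497 FPKM with DASA-58 (log2 fold change 0.53, adjusted p = 0.00014, limma). Ctsb, Ctss and Lgmn, lysosomal proteases that cut endosomal receptors, were called higher as well. They rose by 0.29, 0.15 and 0.12 on the log2 scale (adjusted p = 0.00063, 0.015 and 0.025, limma). Lysosomal proteases did not all rise, since Ctsk (cathepsin K), listed among the osteoclast markers, had a log2 fold change of -0.93. Of the 15 tested genes of this list, 10 were not called. Slc15a3, an endosomal transporter of bacterial peptides, was called at a log2 fold change of 0.14 (adjusted p = 0.046, limma). Unc93b1, the chaperone that brings endosomal receptors to their compartment, was abundant at 249 to 255 FPKM with DMSO and 250 to 266 FPKM with DASA-58, with a log2 fold change of 0.03 (interval -0.04 to 0.10, adjusted p = 0.534, limma). Ly86 and Cd180, a pair related to Ly96 and Tlr4, had log2 fold changes of 0.21 and 0.08 and were not called (adjusted p = 0.056 and 0.191, limma). Without DMSO replicate 1 or DASA-58 replicate 3, the calls of Ctss (adjusted p = 0.052 and 0.065, limma), Lgmn (0.077 and 0.096) and Slc15a3 (0.080 and 0.108) were lost, and Slc15a3 also lost its call without any other single library (up to 0.138). Lgmn was also lost without DASA-58 replicate 1 (adjusted p = 0.072, limma) and replicate 2 (0.069), and Ctss without DASA-58 replicate 2 (0.0501). With no filter on low values or with no trend in the variance, Ctss (adjusted p = 0.205 and 0.063, limma), Lgmn (0.094 and 0.090) and Slc15a3 (0.069 and 0.067) were not called.

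Of the adaptors, kinases and transcription factors downstream, 24 were tested and 22 were not called. The 1 called higher and 1 called lower stand beside 4.24% and 7.28% of all genes tested. Irf7, an interferon regulatory factor that acts after the endosomal receptors, fell from 87.2, 90.7 and 89.6 FPKM with DMSO to 71.2, 75.4 and 80.4 FPKM with DASA-58 (log2 fold change -0.24, adjusted p = 0.015, limma). Ikbke, a kinase of interferon regulatory factors, rose by 0.15 on the log2 scale (adjusted p = 0.033, limma). Ikbke kept its call without DMSO replicate 3 and lost it without any other single library (adjusted p up to 0.106, limma), and Irf7 lost its call only with no filter on low values (adjusted p = 0.063, limma). The median log2 fold change of the list was -0.03.

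Among inhibitors of the pathway, 3 of 14 tested were called higher and 1 lower, where 4.24% and 7.28% of all genes tested were called in these directions. Estimates were higher for 5 and lower for 9 of the 14. Their median log2 fold change was -0.03, as for all genes tested, so the list did not rise as a whole. Irak3, a kinase-like protein that blocks signalling below Myd88, rose by 0.21 on the log2 scale, and the inhibitory receptors Pilra and Cd300a rose by 0.24 and 0.20 (adjusted p = 0.015, 0.0092 and 0.015, limma). Nfkbia, which holds NF-κB in the cytoplasm and is itself induced by it, fell from 144, 148 and 149 FPKM to 118, 122 and 120 FPKM (log2 fold change -0.29, adjusted p = 0.00077, limma). Tnfaip3, another inhibitor that NF-κB induces, had a log2 fold change of -0.19 and was not called (adjusted p = 0.059, limma). Without DMSO replicate 1 or DASA-58 replicate 3, Irak3 (adjusted p = 0.058 and 0.057, limma) and Cd300a (0.058 and 0.059) were no longer called, and Cd300a was not called without DASA-58 replicate 1 (0.056).

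Of 25 genes that Toll-like receptors are known to induce, 11 were under the minimum of 1 FPKM. Of the 14 tested, 5 were called lower and 0 higher, where 7.28% and 4.24% of all genes tested were called in these directions. This list too was chosen with earlier results of these data known, so its counts cannot show a fall of such genes as a set. At an unadjusted p under 0.05, 5 were lower and 2 higher, beside the 18.0% and 9.83% of all genes tested. Cxcl10, a chemokine induced by interferon, stood at 10.7, 9.09 and 11.1 FPKM with DMSO and at 5.64, 5.83 and 6.23 FPKM with DASA-58 (log2 fold change -0.71, interval -0.88 to -0.54, adjusted p = 0.0012, limma). The chemokines Ccl2 and Ccl5 fell by 0.52 and 0.36, the C-type lectin Clec4e fell by 0.33 and the adhesion molecule Icam1 fell by 0.13 on the log2 scale (adjusted p = 0.019, 0.036, 0.010 and 0.032, limma). Tnf was measured at 3.89, 5.37 and 4.66 FPKM with DMSO and at 6.09, 6.34 and 5.82 FPKM with DASA-58, which do not overlap. Its log2 fold change of 0.34 was not called (adjusted p = 0.054, limma), but Tnf was called higher in 4 of 16 alternative settings. Cxcl10 and Clec4e kept their calls without each library in turn. Ccl2 kept its call only without DMSO replicate 3 or DASA-58 replicate 3, Ccl5 only without DASA-58 replicate 3 and Icam1 only without DMSO replicate 2, with adjusted p up to 0.070, 0.105 and 0.113 for the rest (limma). The median log2 fold change of the list was -0.01.

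**Figure D4:**
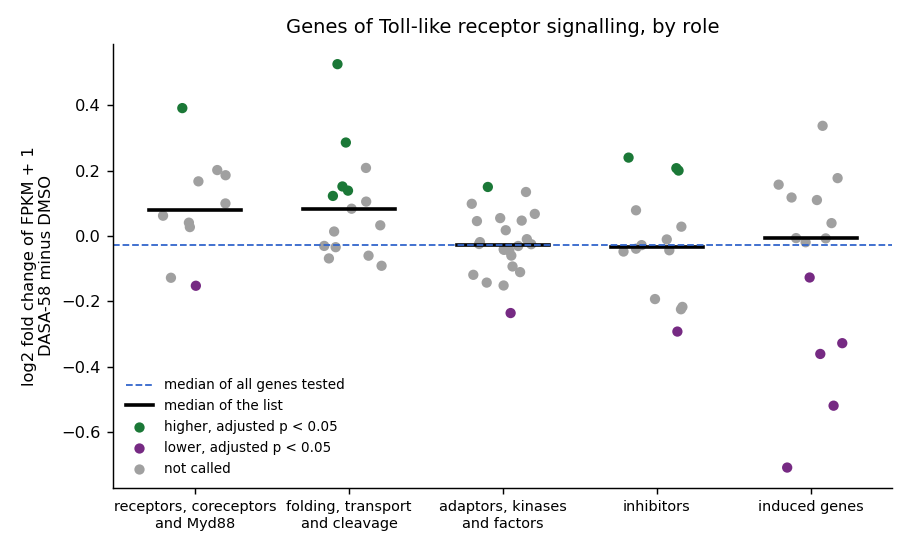
Log2 fold change of FPKM + 1, DASA-58 minus DMSO, of the tested genes in 5 groups of Toll-like receptor signalling, with green for genes called higher, purple for genes called lower and grey for genes not called. Black lines are group medians and the dashed line is the median of all genes tested at -0.03. The 5 called genes of folding, transport and cleavage are all above 0 and the 5 called induced genes are all below 0. All groups were chosen with earlier results of these data known.

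The labelled cell type was checked against marker genes. Of all genes tested, 4.24% were called higher and 7.28% lower, and the marker counts below stand beside these shares. The macrophage genes Adgre1 and Csf1r were at 318 to 391 FPKM and 319 to 346 FPKM over the 6 libraries. All 9 tested osteoclast markers were called lower with DASA-58, and their sum over the list went from between 778 and 833 FPKM to between 449 and 467 FPKM, with Acp5 at 100 to 107 FPKM against 55.3 to 55.9 and Ctsk at 203 to 214 FPKM against 106 to 112. Of 10 macrophage markers, 5 were called higher and 1 lower, with sums of 16788 to 17606 FPKM with DMSO and 17884 to 20190 FPKM with DASA-58. Adgre1 was among those called higher, Csf1r was not called, and the 1 called lower had a log2 fold change of -0.40. Of 7 tested neutrophil markers, 4 were called lower, and the list's sum was 168 to 172 FPKM with DMSO and 131 to 138 FPKM with DASA-58, while the defining gene Ly6g did not exceed 0.058 FPKM. Neutrophils also express Cd14. Markers of T and NK cells were under 1 FPKM for all 6 genes. Stromal markers summed to 34.3 to 36.3 FPKM with DMSO and 34.7 to 35.7 FPKM with DASA-58, with 3 tested and 0 called. Dendritic cell markers summed to 215 to 256 FPKM with DMSO and 216 to 238 FPKM with DASA-58, with 5 of the 6 found under 1 FPKM. B cell markers summed to 1.80 to 2.13 FPKM with DMSO and 2.19 to 2.45 FPKM with DASA-58. The osteoclast, macrophage and neutrophil markers moved with the same contrast as Tlr13, Cd14 and the genes around them, and their part in these results was not tested. In bulk RNA, fewer cells of a type and less RNA per cell cannot be told apart. Pkm, the gene of the enzyme that DASA-58 binds, was at 564 to 581 FPKM with DMSO and 569 to 581 FPKM with DASA-58 (log2 fold change -0.00074, interval -0.06 to 0.05, adjusted p = 0.988, limma).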

How the data were processed

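The authors deposited 1 table of FPKM values, and all 6 value columns were matched to samples by title, leaving 0 unmapped. The submitters' processing notes name HISAT2 2.1.0, HTSeq 0.6.0 and the build mm8, without saying how strand or shared reads were handled. With the exon lengths of GENCODE vM21 (GRCm38), the FPKM of 21368 genes (90.9%) were whole fragments in every library within 0.02, a fitted length made 1863 more whole (Tlr13 with 4086 bases and Cd14 with 1572), and 273 were not recovered. A symbol was found for 23455 identifiers, which leaves 49 without one.

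Genes averaging 1 FPKM or more were compared on log2(FPKM + 1) with limma 3.58.1 in R 4.3.3 (lmFit, eBayes with trend) and Benjamini-Hochberg adjustment, with no block. Exact permutation tests used SciPy 1.17.1. The steps were tested on simulated data. Alternatives were pseudocounts of 0.1 and 5, no filter, a minimum mean of 5 FPKM, quantile normalization, median centring, equal totals, no variance trend, the replicate block and each library left out. Voom weights on recovered fragments were added after seeing the data.

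The 10 genes and all lists were chosen with earlier results of these data known. Named genes were the 10, the other Toll-like receptors, from each list the called genes, up to 4 in each direction by smallest p, or with none called the 2 highest, and Pkm, Acp5, Ctsk, Adgre1 and Csf1r. Slc15a3, Ccl5, Tnf, Unc93b1, Cd180, Ly86, Tnfaip3, Acaa1a and Ly6g were named after their values were seen. Protein identity was not analysed here.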

Additional observations from a re-analysis of the deposited data

How the results depend on the processing

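Tlr13 and Cd14 were called in all 16 alternatives, with log2 fold changes of 0.36 to 0.43 and -0.17 to -0.13. The count of the 10 genes called higher was 3 with a mean of at least 5 FPKM, with quantile normalization, with median centring and with voom weights, where the count called lower was 2. Tlr4 was called in 4 alternatives, Ly96 in 4, Tlr8 in 1 and Myd88 in 1. Leaving out single libraries kept both counts at 1. Of the other pathway genes, 3 were called lower and 5 higher without a filter, and 5 higher with no trend in the variance. Without 1 library, they ranged from 4 to 6 lower and from 3 to 9 higher, with 3 higher without DMSO replicate 1 or DASA-58 replicate 3. Slc15a3 and Icam1 kept their calls in 6 of 16 alternatives, Ikbke in 7 and Ccl5 in 5 of 15. Among genes not called in the main fit, Tnf was called higher in 4 of 16 alternatives and Ly86 higher in 5 of 16. Tnfaip3 was called lower in 2 of 15. The cause of these changes was not tested. Signs turned for Tlr7 without DMSO replicate 2, with a range over single libraries left out of -0.0051 to 0.11, for the difference in the ratio of Ly96 to Tlr4 without DMSO replicate 2, DASA-58 replicate 1 or DASA-58 replicate 2 (range -0.088 to 0.029), and for Pkm with quantile normalization (0.045), median centring (0.026) or without DMSO replicate 1, DMSO replicate 3 or DASA-58 replicate 1 (range -0.015 to 0.0066). Same-numbered libraries did not deviate together (correlations -0.015, 0.016 and -0.016), beside -0.046 to 0.061 for libraries with different numbers. No shared deviation was seen, but whether same-numbered libraries shared an animal or culture cannot be told from it. The replicate block called 2 of the 10 genes higher and 1 lower. The median of all genes lay between -0.042 and -0.00078 on the log2 scale under every setting. Counting error alone gives a coefficient of variation of 5.15% for Tlr9 and 6.25% for Ly96, beside spreads between libraries of 4.05% and 4.61% with DMSO and 9.51% and 5.39% with DASA-58.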
